A study of Mus musculus with 4 samples.

Results

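Cytosolic ribosomal proteins form the protein part of the ribosome outside the mitochondria, the machine that translates messenger RNA. Their transcripts were measured in the 36-65 hybridoma of the mouse, a line of antibody-producing cells made by fusion of a B cell with a myeloma cell. The probe sets were taken by name. A probe set, a group of oligonucleotides on the array that reports 1 transcript, was included if its only gene symbol began with Rpl or Rps and a digit, or was Rplp0, Rplp1, Rplp2 or Rpsa, and kinase symbols (Rps6k), Rps27l and pseudogene symbols were left out. This gave 103 of 45037 probe sets and 49 of 18193 gene symbols. Of the 49 genes, 43 encode standard subunits, 5 are paralogs (Rpl3l, Rpl7l1, Rpl22l1, Rpl39l and Rps4l) and 1, Rps19bp1, encodes a protein that binds a ribosomal protein and is not one itself. Another 110 probe sets carry a ribosomal protein symbol together with other symbols and were left out by the same rule, and Rpl3, Rpl5, Rpl10, Rpl26, Rpl36a, Rplp1 and Rps27a are not analysed as members.

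The low switching group was subclones L25 and L27 (replicates 1 and 2), and the high switching group subclones H23 and H27 (replicates 1 and 2). The labels name no drug, transgene or engineered allele in either group and 1 culture medium with fetal calf serum for both. The groups differ by how often the cells exchanged the heavy chain class in culture, which the labels call spontaneous for the high group. Total RNA of each subclone was hybridized to 1 Affymetrix array, so each group rests on 2 clones. The labels do not say whether the clones of a group arose separately, so no p-value reaches wider than these 4 subclones. The p-values and standard errors (SE) come from limma, which draws each probe set's own spread toward a value pooled over all probe sets. In bulk RNA of this kind, fewer cells with a transcript and less of it per cell cannot be told apart.

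Array medians of intensity ran from 38.1 to 39.3. Hybridization controls, RNAs added in known amounts, had mean log2 intensities of 11.14 on L25 and 11.04 on H27, and of 10.52 on L27 and 10.59 on H23, a split that crosses the groups. Markers of the labelled cell type were present, with 0 of 9 plasma cell markers dimmer than the median on all arrays. As dim as that were 4 of 7 B cell, 1 of 6 T cell, 5 of 8 myeloid, 2 of 3 erythroid and 3 of 6 fibroblast markers. This measure alone does not tell the cell type. The antibody joining chain gene Jchain read between 14.35 and 14.49, and the summed signal of the 9 plasma cell markers was between 15.71 and 15.93 (log2). Their median difference (high minus low) was -0.38. Both high switching arrays lay below both low ones for 5 of the 9 and above them for 2, against 22.2% and 25.1% of all probe sets. The 2 were Prdm1 (0.74 ± 0.20 SE) and Sdc1 (0.11 ± 0.12), neither of them called. Limma called 2 of the 9 lower, the secretory regulator Xbp1 (-0.71 ± 0.13 SE) and the survival receptor Tnfrsf17 (-0.72 ± 0.13). Of all probe sets 2.1% were called lower, while the marker lists take only the brightest probe set of each gene. Summed signals of other cell types were lower, from 12.34 to 12.79 for 7 B cell markers, from 8.63 to 8.92 for 6 T cell, from 8.58 to 9.06 for 8 myeloid, from 6.41 to 6.71 for 3 erythroid and from 7.22 to 7.67 for 6 fibroblast markers. The B cell and fibroblast sums were higher in both high switching subclones than in both low ones. The T cell and myeloid sums were lower, and the erythroid sum overlapped. The plasma cell sum was also lower, but L25 at 15.833 and H27 at 15.830 nearly coincided, with L27 at 15.929. The called markers of these other types were Cd79b (0.77 ± 0.11) of B cells, Lum (1.21 ± 0.18) of fibroblasts and Itgam (-1.38 ± 0.16) of myeloid cells. The part of these markers in the members' values was not tested. The gene table of assembly GRCm38.p6, used for chromosomes and gene order, held all 49 symbols.

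Each ribosome joins a large and a small subunit, and each subunit is built on ribosomal RNA with 1 copy of most ribosomal proteins, so cells make these proteins in matched amounts. Their messenger RNAs are among the most abundant in growing and secreting cells, including plasma cells. Most begin with a stretch of the pyrimidines C and T, the terminal oligopyrimidine tract, through which mTOR signalling controls their translation rather than their amount. Mouse genomes also hold many processed pseudogenes of these genes, so a probe can match more than 1 transcript.

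The start sites of some genes described below are shown to set that tract beside the values. The sequences are RefSeq's for GRCm38.p6, from 40 bases before the annotated start of transcription to 20 bases from it on, on the gene's strand, with a run of at least 8 pyrimidines that overlaps the 5 bases on either side of the start in capitals. Rpl7a is shown because it has the longest run among the members, and Rps24 by the 1 of its 2 listed starts that has a run.
Rpl7a (chr2:26910767-26910826, + strand): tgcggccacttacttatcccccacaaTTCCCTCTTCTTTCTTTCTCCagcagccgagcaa
Rps24 (chr14:24490638-24490697, + strand): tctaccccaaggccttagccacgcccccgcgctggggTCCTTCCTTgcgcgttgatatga
Rps27 (chr3:90213629-90213688, - strand): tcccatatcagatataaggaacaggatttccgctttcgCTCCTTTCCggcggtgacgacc
Rps9 (chr7:3704001-3704060, + strand): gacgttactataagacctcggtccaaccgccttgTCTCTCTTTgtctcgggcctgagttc
Rpl22l1 (chr3:28805468-28805527, + strand): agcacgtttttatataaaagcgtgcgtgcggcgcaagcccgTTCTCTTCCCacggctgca
Rpl39l (chr16:10170188-10170247, + strand): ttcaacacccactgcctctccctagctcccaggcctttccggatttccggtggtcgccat
Rpl7l1 (chr17:46782637-46782696, - strand): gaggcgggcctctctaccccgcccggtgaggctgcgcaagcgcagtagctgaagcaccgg
The paralogs Rpl7l1 and Rpl39l have no such run in these windows. Promoter entries were found for 43 of the 49 genes, and 17 of their 50 starts (34%) held a run, against 9.38% of all 32851 starts in the table. The 17 genes with a run had a median high minus low difference of 0.04 (log2), and the 26 without one a median of 0.06. A missing run says only that no run of at least 8 overlaps the 5 bases on either side of the annotated start. Stretches elsewhere in the window, such as one in Rpl39l, were not counted.

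High and low switching subclones were set against each other to ask whether the transcripts of the ribosome's own proteins differ between the classes. None of the 103 probe sets passed limma's test at a Benjamini-Hochberg adjusted p under 0.05 over all probe sets, in either direction. Of all 45037 probe sets 3.59% passed, 1.5% as higher and 2.1% as lower in high switching subclones. An unadjusted p under 0.05 was found for 5 of 103 members, 4 of them higher in high switching subclones, and for 18.6% of all probe sets. The smallest adjusted p of a member was 0.0879. The other 110 probe sets, those with several symbols, also had 0 past the threshold and 8 with an unadjusted p under 0.05.

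The differences themselves were small. Their median over the 103 probe sets was 0.04 (log2, high minus low) and their middle part ran from -0.01 to 0.11 (quartiles), against a median of 0.01 and quartiles of -0.12 and 0.14 over all probe sets. For 101 of the 103 members the 95% confidence interval of the difference lay within a 2-fold change in either direction, as it did for 93.9% of all probe sets. The exceptions were 1 probe set each of Rps24 and Rps3. A missed threshold does not show equal levels, but for these 101 probe sets a change of intensity of 2-fold or more lies outside the interval.

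Most members sat at the top of the measuring range. The brightest 1% of all probe sets had a mean log2 intensity of at least 13.0, and 63 members lay there, which is 14% of the 451 probe sets in that band. The brightest were Rpl4 (mean 15.02), Rpl37a (14.89) and Rpl19 (14.82), all of the large subunit, and the brightest probe set on any array read 15.25. Intensity on such arrays can saturate, so that it grows less than the amount of transcript, and whether it did here was not tested. Members in the brightest 1% had differences between -0.10 and 0.26, while the 31 members of middle level ranged from -0.34 to 1.01. The 388 other probe sets of the brightest 1% ranged from -1.34 to 1.34, with 2 past the threshold as higher and 2 as lower.

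**Figure D1:**
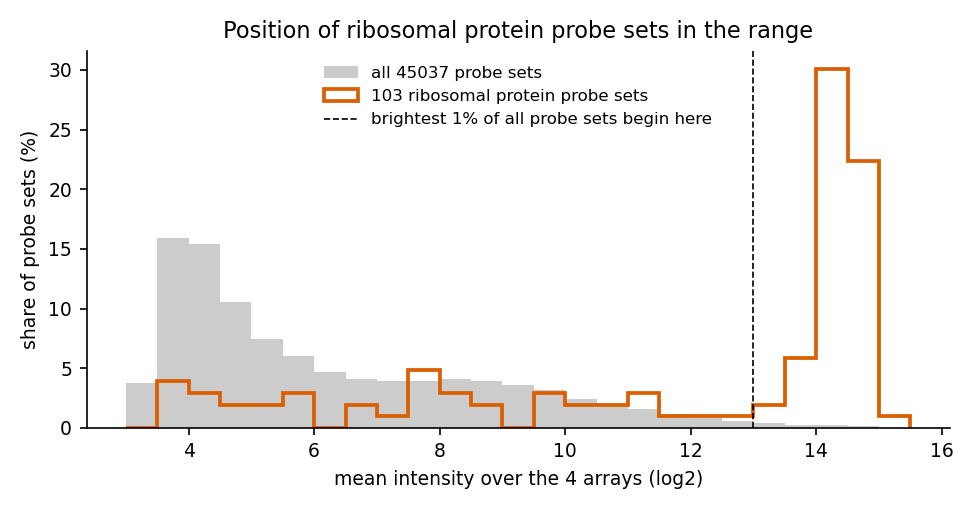
Share of probe sets (%) by mean log2 intensity over the 4 arrays, in bins of 0.5, for all 45037 probe sets (grey) and the 103 ribosomal protein probe sets (orange line). Most members lie right of the dashed line at 13.0, where the brightest 1% begin.

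At the other end, 9 members read dimmer than the median on all 4 arrays, a range in which a reading can be mostly background. The dimmest were a probe set of Rps16 (mean 3.70), one of Rps6 (3.70) and one of Rps20 (3.98). Rps6 encodes the small subunit protein that the S6 kinases phosphorylate. Its other probe set read 8.10 on L25, 7.98 on L27, 8.01 on H23 and 8.09 on H27, so the groups overlapped. The differences of the dim and the brighter probe set were -0.05 and 0.0077.

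**Figure D2:**
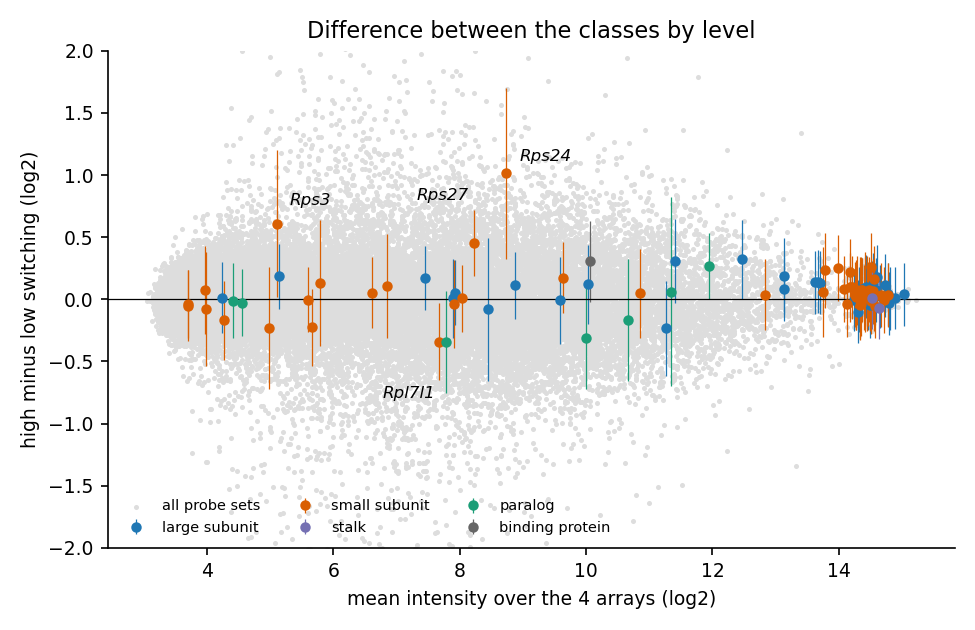
High minus low switching difference (log2) against mean log2 intensity, for all probe sets (grey) and members coloured by role, with the 95% confidence interval of each member. Of all probe sets 144 lie beyond 2 in either direction and are not drawn; members cluster near 0 at the right, and the highest member is Rps24 at 1.01.

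Among bright probe sets the members leaned slightly upward. Among the 65 members that averaged 12 or more, the difference was above 0 for 53, against 511 of 1040 other probe sets of that level. Their median difference was 0.04, with a median of -0.0025 for the others. Both high switching arrays lay above both low switching arrays for 29 of the 65, where 30.4% of the other bright probe sets did so, and below them for 4 of the 65, where 30.1% did so. None of the 65 passed the threshold, and 2.02% of the other bright probe sets did. The interval was within 2-fold for all 65 and for 98.1% of the others. Several probe sets share a gene, and 68 of the 103 members have names that mark a possible match to more than 1 transcript, so these counts are not independent.

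Over all 103 members, both high switching arrays lay above both low ones for 39 and below for 9. The same held for 25.1% and 22.2% of all probe sets. This lean was no larger than the spread within a group. The median difference of L27 from L25 was -0.04, and that of H27 from H23 was 0.04. L27 had the lowest reading for 51 of 103 members and H27 the highest for 50. Without L27 the median high minus low difference was 0.0077, and without L25 it was 0.086. Without H23 it was 0.075 and without H27 0.025.

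**Figure D3:**
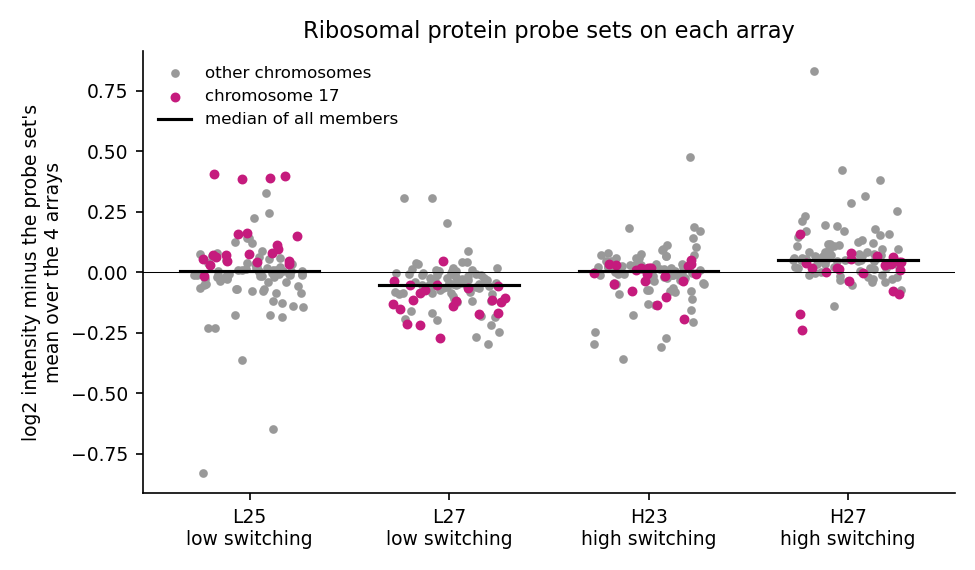
Log2 intensity of each of the 103 members minus its own mean over the 4 arrays, by subclone, with members on chromosome 17 in pink and the median of all members as a bar. The bars stand at 0.0047 (L25), -0.05 (L27), 0.0059 (H23) and 0.05 (H27), and most pink points lie below 0 on L27.

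The 40 probe sets of 20 large subunit genes had a median difference of 0.05, with 32 above 0. Both high switching arrays lay above both low ones for 23 (57.5%) and below for 2 (5%), against 25.1% and 22.2% of all probe sets. Of these 23, 5 are probe sets of Rpl35. The 53 probe sets of 21 small subunit genes had a median of 0.04, with 38 above 0. In this way 14 (26.4%) lay above, near the share of all probe sets, and 4 (7.5%) below. Of the 53, 6 each are of Rps10 and Rps18 and 3 of Rps28, all on chromosome 17, and none of these lay above or below. The 7 probe sets of paralogs had a median of -0.03, with 2 above 0. No test compared the roles. The stalk proteins Rplp0 and Rplp2 sit on the large subunit and recruit elongation factors. Rplp0, often used as a reference gene, read 14.67 on L25, 14.67 on L27, 14.61 on H23 and 14.60 on H27, a difference of -0.07 ± 0.10 (SE). Its groups do not overlap, yet the interval from -0.32 to 0.18 includes 0, and the sign turned (0.15) with the median of neighbouring genes subtracted. Standard deviations within its groups were 0.0004 (low) and 0.0060 (high), so this SE rests mostly on the pooled value. Rplp2 read between 14.49 and 14.55, with overlapping groups and a difference of 0.01 ± 0.10.

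Among large subunit genes, Rpl11, which also binds the p53 regulator MDM2, read 14.50 and 14.46 in low and 14.60 and 14.60 in high switching subclones (0.12 ± 0.10 SE). All 3 Rpl7 probe sets were slightly higher in both high switching subclones, with differences between 0.04 and 0.08. So were 5 of 6 Rpl35 probe sets, and the differences of all 6 lay between 0.02 and 0.19. The 0.19 came from a probe set dimmer than the median on every array (mean 5.14). The 5 Rpl35 probe sets in the brightest 1% gave 0.02 to 0.08. Rpl13a, whose protein also leaves the ribosome to silence certain messengers in inflammation, was measured by 4 probe sets. Its dimmest probe set read 12.41 and 12.20 in low against 12.53 and 12.72 in high switching subclones, and the groups differed by 0.32 ± 0.13 (limma adjusted p = 0.266). Its brighter probe sets gave -0.10, -0.05 and 0.19, so the probe sets of this gene did not share a direction. Rpl37 had 11.27 and 11.24 against 11.40 and 11.72 (0.31 ± 0.14), where the spread between the high subclones was as large as the difference. It was 0.15 without H27.

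Among small subunit genes, Rpsa, also known as a laminin receptor, had a bright probe set with a difference of -0.01 and a dim one with -0.17. Rps14 gave 0.0039 and 0.07, and Rps19, the gene most often mutated in Diamond-Blackfan anaemia, 0.10, with intervals that include 0 for each. Rps9 read 7.81 and 7.87 in low and 7.37 and 7.63 in high switching subclones on its dimmest probe set. That difference of -0.34 ± 0.13 had a limma adjusted p of 0.23, and the other probe sets of Rps9 gave -0.035 and -0.04. Rps4x, the X-linked form of a small subunit protein, read 14.77, 14.76, 14.76 and 14.84 on L25, L27, H23 and H27 (0.04 ± 0.10), and a dim probe set of it gave -0.23 ± 0.13.

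Rps3, a small subunit protein at the entry of the messenger channel that also acts in DNA repair, gave 0.61 ± 0.24 on a dim probe set (4.46 and 5.15 against 5.58 and 5.24). That value ran from 0.26 to 0.95 with 1 array left out. Its other probe sets read 14.39, 14.36, 14.31 and 14.37, and 10.93, 10.74, 10.73 and 11.04, on L25, L27, H23 and H27, with overlapping groups both times.

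Rps24, a small subunit protein needed to mature the small subunit's RNA, had the largest difference of any member. A probe set of middle level (mean 8.74) read 7.91 on L25, 8.56 on L27, 8.92 on H23 and 9.57 on H27. Both high switching arrays lie above both low ones, but subclones of the same group lie 0.65 apart in either group, further than the nearest subclones of different groups. The difference was 1.01 ± 0.28 (SE), with an interval from 0.32 to 1.70 and a limma adjusted p of 0.124. It was 0.69 without L25 and also without H27, and 1.34 without L27 and also without H23. Rps24 was also higher in both high switching subclones on its 4 bright probe sets, by 0.17 to 0.25 and with adjusted p-values from limma of at least 0.299. The dimmest of its 6 probe sets read 5.73, 5.73, 5.54 and 6.17, with overlapping groups. Intervals of the 4 bright probe sets end between 0.43 and 0.54, below the 1.01 of the probe set of middle level.

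Rps27, a zinc finger protein of the small subunit, came nearest to the threshold. It read 7.99 and 8.004 in low and 8.39 and 8.51 in high switching subclones, and the gap between the groups is wider than the spread within either. The difference of 0.45 ± 0.11 (SE) had an interval from 0.19 to 0.72 and an adjusted p of 0.0879 by limma, with a range of 0.0647 to 0.352 over the alternatives. Rps3a1, which lies on the same chromosome 3, read 14.32 and 14.42 against 14.57 and 14.69 (0.26 ± 0.11).

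**Figure D4:**
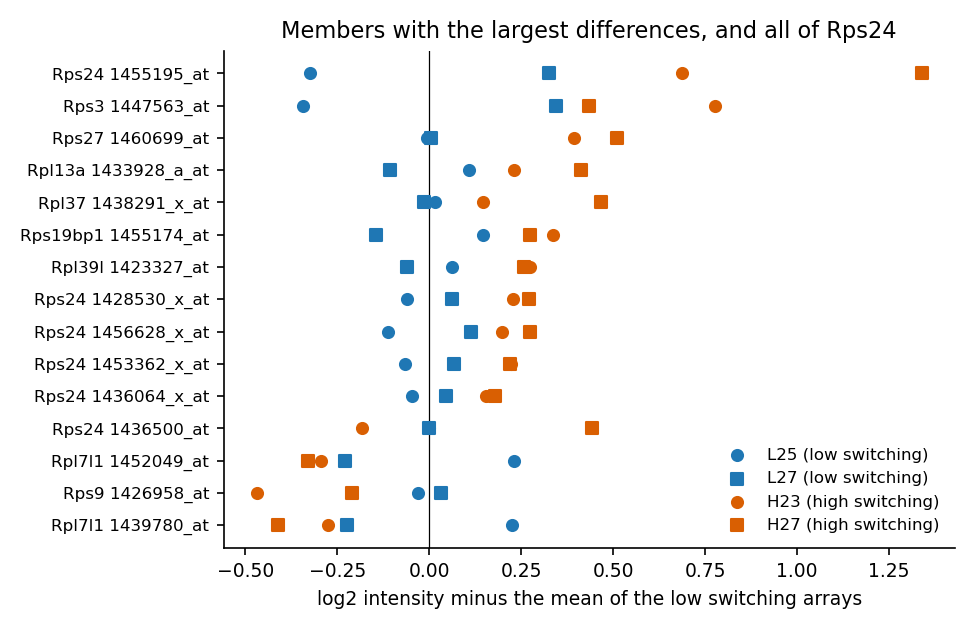
Log2 intensity of each subclone minus the mean of the low switching arrays, for the 10 member probe sets with the largest differences and all 6 of Rps24 (blue, low switching; orange, high switching; circles, L25 and H23; squares, L27 and H27). The low switching subclones of Rps27 nearly coincide, and the subclones of a group lie far apart for the top probe set of Rps24 and for Rps3.

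The 7 probe sets of paralogs had a median absolute difference of 0.45 between L27 and L25, where all members had 0.09. Between H27 and H23 it was 0.06, where all members had 0.05. The 31 members of middle level had 0.19 and 0.14. Of the 7 probe sets 3 are of Rpl7l1, on chromosome 17. L27 minus L25 was 0.06 for Rpl3l, -0.12 for Rpl39l and -0.24 for Rps4l, so the 0.45 does not hold for each paralog. Rpl22l1 can take the place of Rpl22 in the large subunit. It read 10.98 on L25, 11.65 on L27, 10.98 on H23 and 11.76 on H27, which pairs L25 with H23 and L27 with H27 across the groups, although the labels tie no low subclone to a high one. Its difference between the groups was 0.06 ± 0.31, while L27 exceeded L25 by 0.67 and H27 exceeded H23 by 0.78. Neighbouring genes on chromosome 3 had medians of the same signs, 0.28 for L27 minus L25 and 0.31 for H27 minus H23. With the neighbours' median subtracted, the difference of Rpl22l1 between the groups was -0.43. Rpl22 itself gave 0.14, 0.10 and -0.23 on 3 probe sets.

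Rpl7l1, a paralog of Rpl7, was measured by 3 probe sets, all brightest on L25. They read 8.18, 10.38 and 11.05 on L25 and 7.73, 9.92 and 10.45 on L27. On the high switching subclones H23 and H27 they lay between 7.55 and 7.68, between 9.82 and 9.86, and between 10.58 and 10.59. L27 was thus much nearer to the high switching subclones than to L25. The differences between the groups of -0.34, -0.31 and -0.17 became -0.12, -0.08 and 0.13 without L25, so their size rests on that subclone.

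Rpl39l, a paralog of Rpl39 best known from male germ cells, read 11.87 and 11.74 in low and 12.08 and 12.06 in high switching subclones. Its difference of 0.27 ± 0.11 (SE) had a limma adjusted p of 0.269. With its neighbours' median subtracted, taken over 20 genes to the left and 20 to the right, the difference was 0.56 and passed (adjusted p = 0.0473), the 1 member call made by any alternative at 0.05. The adjusted p of Rpl39l ranged from 0.0473 to 0.568 over the alternatives. Rpl39 was higher in both high switching subclones (0.17 ± 0.11). Rpl3l, known from muscle, and Rps4l read below the median probe set on every array, with differences of -0.03 and -0.01. Rps19bp1, which activates the deacetylase SIRT1, read 10.06 and 9.77 against 10.25 and 10.19 (0.31 ± 0.13).

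The members were also sorted by chromosome, a choice made after their values were seen. Chromosome 17 carries 7 of the genes and 21 of the probe sets, which are Rpl3l, Rps2, Rps10, Rps18, Rps28, Rpl10a and Rpl7l1. L27 was below L25 for 20 of these 21, by up to 0.60, and for 53 of the 82 other members. Rps18, a small subunit protein, read 14.52 on L25, 14.24 on L27, 14.44 on H23 and 14.44 on H27 on the probe set with a mean of 14.41. The Rps10 probe set with a mean of 13.75 read 13.91, 13.54, 13.74 and 13.82 in the same order. All 6 probe sets of each were lower on L27 than on L25, and so were all 3 of Rps28, by 0.17 to 0.20.

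Other genes of chromosome 17 had the same sign. In 398 genes there that are not members and have a mean of at least 7, the median of L27 minus L25 was -0.23, and 76.1% were lower on L27. On the chromosomes with members other than 3, 14 and 17, that median lay between -0.02 and 0.05. Between the groups, the members of chromosome 17 had a median difference of 0.04 and the other genes there -0.17. The part of genome position in the members' values was not tested.

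Chromosome 3 gave the opposite sign. Its 367 other genes had medians of 0.38 for high minus low and 0.26 for L27 minus L25, and its members Rps27, Rps3a1 and Rpl22l1 had differences between the groups of 0.45, 0.26 and 0.06. The neighbours of Rps27 had a median difference of 0.25, and with it subtracted Rps27 had a difference of 0.20 (limma adjusted p = 0.352). Rps24 lies on chromosome 14, where other genes had a median difference of 0.15, and its neighbours 0.13. For L27 minus L25 the medians were 0.18 on that chromosome and 0.24 in the neighbours of Rps24. The 6 Rps24 probe sets ran from 0 to 0.65 in that comparison. Between the groups, Rpl39l went against its neighbours on chromosome 16, with 0.27 against -0.29.

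Over the 49 genes, the median difference of a gene's probe sets and that of its neighbours had a Pearson correlation of 0.45 (Spearman 0.48) for high minus low, and of 0.47 (0.32) for L27 minus L25. The latter was 0.16 (-0.01) over the 39 genes outside chromosomes 17 and 3, so it rests on those chromosomes. The former was 0.39 (0.42) there. These correlations run across genes that share the same 4 arrays, and genes are not replicates. A shared sign was found for 24 of 49 genes between the groups and for 20 of 49 between the low switching subclones.

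**Figure D5:**
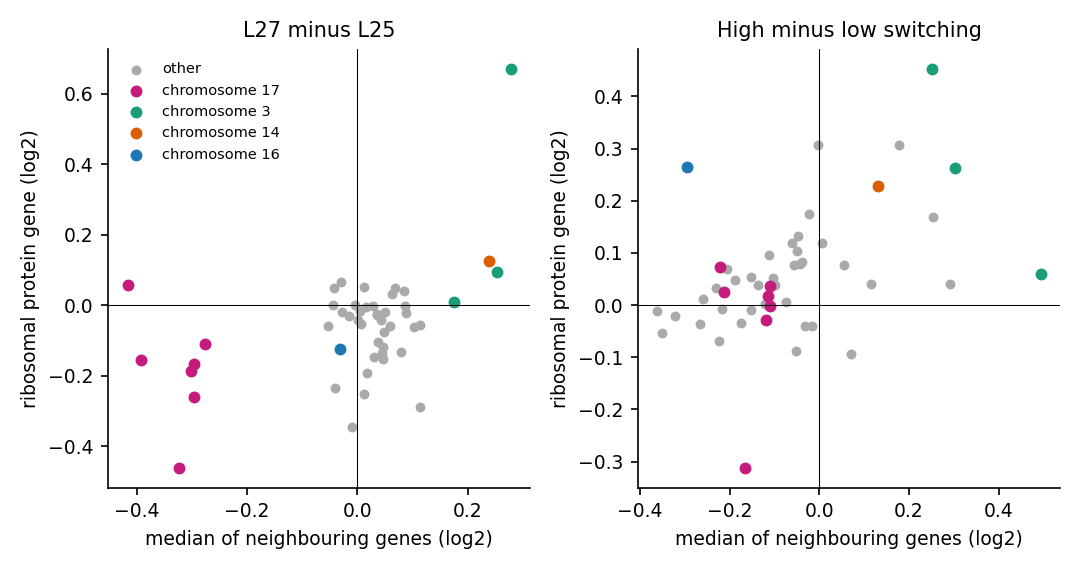
Median log2 difference of each of the 49 genes against that of its neighbours (up to 20 genes to the left and 20 to the right), for L27 minus L25 (left) and high minus low switching (right), with chromosomes 17, 3, 14 and 16 coloured. On the left, genes of chromosome 17 lie below 0 on the vertical axis except Rpl3l, and Rpl22l1 of chromosome 3 stands at 0.67.

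Other genes of protein synthesis were taken as lists, with the brightest probe set standing for its gene. The list of ribosomal proteins with other symbols left 1 measured gene, Fau, which encodes a small subunit protein fused to a ubiquitin-like one, with readings between 14.04 and 14.09 and a difference of 0.01. Of 42 elongation and initiation factors 2 were called as higher and 0 as lower, with a median difference of 0.05. They were Eif4ebp1, the mTOR-controlled repressor of cap-dependent initiation (11.86 and 11.88 in low, 12.60 and 12.50 in high switching subclones, 0.68 ± 0.11 SE, limma adjusted p = 0.0323), and the scaffold gene Eif4g3 (8.24 and 8.22 against 8.84 and 8.81, 0.60 ± 0.10, adjusted p = 0.0404). The share of 2 in 42 is near the 3.59% of all probe sets. That share also covers dimmer probe sets, so it is not a like base for these lists. A fit with 1 probe set for each gene called 506 of 18193 as higher and 658 as lower. Of non-members with a mean of at least 12, 2.02% were called.

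Ribosomal proteins of mitochondria, which translate the few messengers of that organelle, included genes past the threshold. Of 76 measured, 5 were called as lower and 2 as higher, where 3.59% of all probe sets were called. The fit with 1 probe set for each gene called 658 of 18193 as lower and 506 as higher. None of the 76 read dimmer than the median on all arrays, so the share of all probe sets is not a like base. Of 18443 probe sets with a mean of at least 6, a separate fit called 1044 as lower and 785 as higher. Both high switching arrays lay below both low ones for 40 of the 76 and above them for 17, against 22.2% and 25.1% of all probe sets. Those shares were 30.1% and 30.4% of non-members with a mean of at least 12. The 76 genes had a median difference of -0.17. Mrps35 of the small mitochondrial subunit read 12.96 and 12.70 in low against 11.62 and 11.61 in high switching subclones, a difference of -1.22 ± 0.13 (limma adjusted p = 0.0123). Mrps28 (0.92 ± 0.11) and Mrpl4 (0.78 ± 0.11) were the higher genes, and Mrpl37 (-0.79 ± 0.11) was the second largest of the lower ones. The cytosolic list had 0 of 103 called, with a median of 0.04, and the difference between these lists was not tested.

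Genes of ribosome assembly and ribosomal RNA synthesis had 0 of 63 called by limma, 13 with an unadjusted p under 0.05 (18.6% of all probe sets), and a median difference of -0.16. The list holds nucleolar proteins and RNA polymerase I subunits. Both high switching arrays lay below both low ones for 27 of the 63 and above them for 8, against 22.2% and 25.1% of all probe sets. Those shares were 30.1% and 30.4% of non-members with a mean of at least 12. Of 13 measured regulators of ribosomal protein synthesis, among them mTOR, its partners and Myc, limma called 0, with 4 at an unadjusted p under 0.05 and a median difference of -0.06.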

How the data were processed

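Biotin-labelled RNA of 4 subclones was read on 1 array each, per the labels. The authors deposited linear intensities, for which the submitters' processing notes list RMA (background correction, normalization between arrays and summary over probes) without a version. For the genome build, the sources used here give nothing. Intensities were first turned to log2. From 45101 probe sets the 64 controls were removed, and the remaining 45037 were fitted without a filter by limma 3.58.1 in R 4.3.3 (lmFit and eBayes, two-sided, Benjamini-Hochberg over all, threshold 0.05). The SE is the moderated one. With 2 arrays a group, the smallest two-sided p of an exact permutation test is 0.333. The platform annotation gave 1 symbol for 34945 probe sets, several for 932 and none for 9160.

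Members, lists and tests were chosen with earlier results of these data known, so no list was tested as a whole. Genes were named by a fixed rule: members past the threshold, the 10 largest differences, paralogs and some core genes whatever their value, the 3 brightest and 3 dimmest, genes whose probe sets lie more than 1 apart (none: the widest gap was 0.88), and up to 4 called genes of each list. Rpl35, Rpl7a, Rps3a1, Rps10, Rps18, Rps28, Rps2, Rpl10a, Fau, Jchain, Prdm1 and Sdc1 were chosen after their values were seen. So were the other probe sets of Rps9, Rpl13a and Rps24. The fit was tested on simulated data. Tables and plots were made in Python 3.11.15 with pandas 2.3.3 and matplotlib 3.10.9.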

Additional observations from a re-analysis of the deposited data

How the results depend on the processing

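The count of members past the threshold was 0 under the alternatives run, except for 1 (Rps27, higher) at an adjusted p under 0.1 and 1 (Rpl39l, higher, 0.56) with the neighbours' median subtracted. The median difference of the members was above 0 in every alternative. It was 0.15 with the neighbours' median subtracted (0.05 over all probe sets), and between 0.0077 and 0.086 with 1 array left out. It was 0.007 over the 35 members whose names mark no match to several transcripts, against 0.01 over all such probe sets. Over all probe sets, 1439 were higher and 1838 lower at an adjusted p under 0.1, against 674 and 944 at 0.05. When arrays were blocked by high or low hybridization controls, 58 were higher and 94 lower. With 1 array left out, 112 to 253 were higher and 196 to 329 lower, where the lone array of a group was assumed to vary like the other group's. No other alternative moved a count by over 1.5 times. Of 40 named probe sets, the sign changed for 9 with the neighbours' median subtracted, for 3 to 8 with 1 array left out, for 3 with cyclic loess, for 2 with a second quantile normalization and for 1 with arrays centred on bright probe sets, and none of these had passed the threshold.

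The number of arrays, 2 a group, limits the precision. The median moderated SE of a member's difference was 0.11, which reflects the spread pooled over all probe sets as well as the member's own. Whether intensity saturated near the top of the range was not tested.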
